A study of Mus musculus with 6 samples.

Results

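The endothelin system in the dorsal root ganglion (DRG) was followed through 7 genes of the deposited count table, namely the ligand genes Edn1, Edn2 and Edn3, the receptor genes Ednra and Ednrb, and the converting enzyme genes Ece1 and Ece2. They were picked by name out of 47937 rows, and each was found as 1 row by its Ensembl identifier. The family was taken up because Edn3 rose strongly in the mutant, so the change of Edn3 is given below as a description without a test. The other 6 genes came in by name, as members of the same system. Earlier results of these data were known when the members were chosen. All 7 were among the 20006 genes tested, each having at least 10 counts over the 6 libraries.

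RNA sequencing was done on cervical, thoracic and lumbar DRGs of mice of the strain C57BL/6, about 2 months old, with 3 libraries per genotype. The controls carry the label wild type, and the mutants the genotype Tlx3f/f;SNS-cre, called Tlx3cko here. In these mutants Cre is driven by the Nav1.8 (SNS) promoter, which is active in most nociceptors, so that the deletion of Tlx3, a homeobox transcription factor, is directed to those neurons and not to glia, vessels or Nav1.8-negative neurons. The labels do not say whether the control libraries carried floxed alleles, nor whether a library came from 1 animal, and the p-values below measure the spread between these libraries.

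Endothelins are short peptides cut from long precursors. A furin-type convertase first releases big endothelin, and an endothelin converting enzyme then frees the active peptide. Endothelin-1 and endothelin-2 act on the ETA and ETB receptors, whereas endothelin-3 prefers ETB. In sensory ganglia ETA is known from nociceptors and ETB from satellite glia and Schwann cells, and endothelin-1 is known for evoking pain and itch. Endothelin-3 and ETB are best known from development, where they guide neural crest cells that become enteric neurons and melanocytes.

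The bases that encode the mature peptides are shown because they tell the 3 ligand genes apart. Edn1 and Edn2 have 1 annotated transcript each, which carries them, and Edn3 has 4, of which 3 carry them. The counts are per gene and do not separate these transcripts. Each stretch runs over 63 bases (21 codons) within exon 2 of its gene in the GENCODE M21 annotation of GRCm38, on the plus strand. It is written 5′ to 3′ with the 4 cysteine codons in capitals. Cysteines form the disulfide bridges that fold the peptide.
Edn1, chr13:42303649-42303711: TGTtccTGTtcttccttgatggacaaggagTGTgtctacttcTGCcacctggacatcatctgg
Edn2, chr4:120161951-120162013: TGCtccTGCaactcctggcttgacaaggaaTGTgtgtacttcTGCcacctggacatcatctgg
Edn3, chr2:174761749-174761811: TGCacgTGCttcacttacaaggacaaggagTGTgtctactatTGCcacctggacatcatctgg
Edn1 and Edn2 had 53 of the 63 bases in common and 18 of 21 codons with the same meaning. Edn3 stood further from both, with 15 codons of the same meaning as in Edn1 and 15 as in Edn2. Apart from Ece2, no member shared 100 or more bases at 98% identity with another annotated gene.

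The libraries held between 11458299 and 18775628 counts. Normalized counts below are counts scaled by edgeR's TMM factors to a library of 14974185. On this scale the targeted gene Tlx3 stood at 2057 ± 173 in control and 1495 ± 141 in Tlx3cko DRGs (SD, n = 3 each). Counts on Xist, which marks female cells, were 591 and 493 in control replicates 1 and 2 and at most 2 in the other 4 libraries. These 4 carried between 273 and 525 counts on the Y-linked Ddx3y. Sex was therefore not balanced between the genotypes, and each fold change was also computed with control replicate 3 as the only control, which compares libraries of 1 sex. Markers of DRG neurons, satellite glia and Schwann cells were all detected. The melanocyte list was mixed. Raw counts per library ran from 31 to 103 for Tyrp1 and from 32 to 62 for Pmel. Dct had at most 1 count in any library and Mlana at most 2. Tyr had 0 counts throughout, a value that leaves room for up to 3 counts per library.

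Edn3 (ENSMUSG00000027524, chr2:174760619-174784042, plus strand) encodes the precursor of endothelin-3. Raw reads numbered 15, 14 and 6 among the controls (replicates 1, 2 and 3, here and below) against 322, 202 and 383 among the mutants. Normalized counts were 16.2, 13.96 and 4.79 among controls against 309.9, 265.1 and 376.9 among mutants. All Tlx3cko libraries lay far above all controls, and the lowest value belonged to control replicate 3. The means were 11.6 ± 6.04 and 317.3 ± 56.3 normalized counts (SD, n = 3 each), a ratio of 27.2, and the log2 fold change fitted by edgeR was 4.82. This is the value for which the family was chosen. By log2 fold change Edn3 ranked 19 among all 20006 genes tested. With control replicate 3 as the only control the log2 fold change was 6.02, and omitting any 1 library moved it to between 4.39 and 5.13. In whole ganglia more cells with a transcript and more transcript per cell cannot be told apart.

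Edn1 (ENSMUSG00000021367, chr13:42301476-42307990, plus strand) encodes the precursor of endothelin-1, the vasoconstrictor of endothelial cells. It had few reads, 5, 2 and 11 among controls against 22, 11 and 13 among mutants. Normalized counts were 5.40, 1.99 and 8.77 among controls against 21.2, 14.4 and 12.8 among mutants. The groups did not overlap in normalized counts, although the highest control, replicate 3, came near the lowest mutant. The log2 fold change of Edn1 was 1.53 (SE 0.63, 95% interval 0.18 to 2.89), and it did not pass the threshold (unadjusted p = 0.0295, Benjamini-Hochberg adjusted p = 0.262, edgeR). With control replicate 3 as the only control it was 0.87 (95% interval -0.82 to 2.57).

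Edn2 (ENSMUSG00000028635, chr4:120161206-120167360, plus strand) encodes the precursor of endothelin-2 and was hardly detected. Raw reads numbered 3, 4 and 5 among controls against 6, 0 and 4 among mutants. The 0 of Tlx3cko replicate 2 allows up to 3 counts. A change was not detectable at this depth, since the 95% interval of the log2 fold change ran from -2.25 to 1.97 (adjusted p = 0.972, edgeR).

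**Figure D1:**
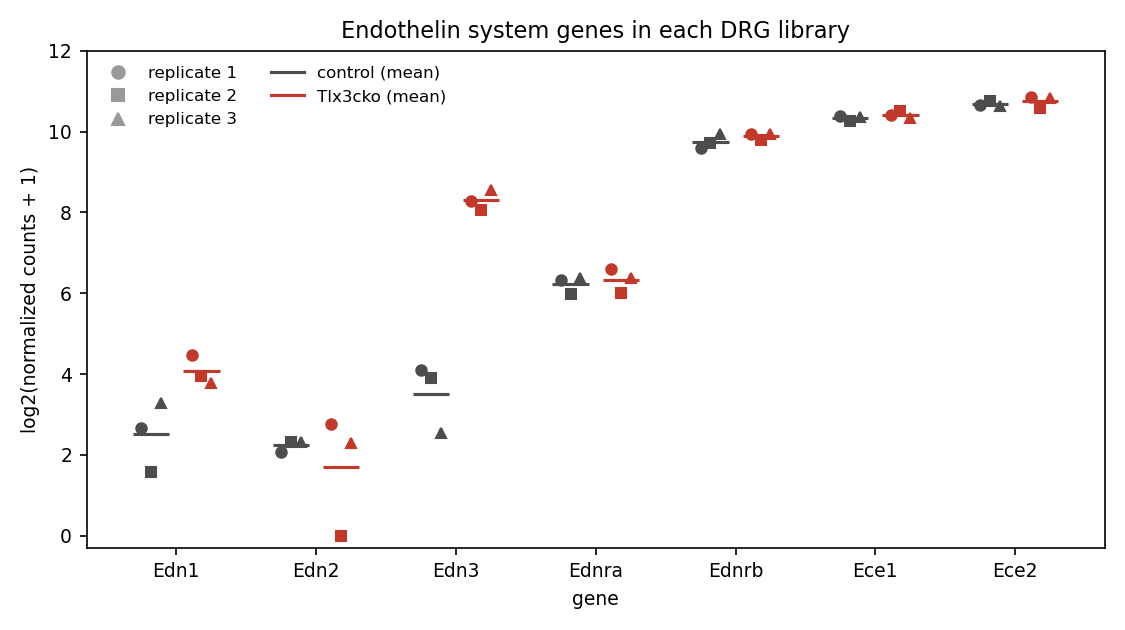
Each point is 1 library of control (grey) or Tlx3cko (red) DRGs, with the gene on the horizontal axis, log2(normalized counts + 1) on the vertical axis, the symbol giving the replicate and the line the mean of the 3 points. The Edn3 points of the genotypes lie far apart, those of Edn1 lie close without overlap, and those of the other 5 genes overlap.

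To compare genes with each other, normalized counts were divided by the exonic length of each gene in kilobases. In control DRGs the ligand genes stood at low levels on this scale, with 2.83 ± 1.47 for Edn3, 2.56 ± 0.297 for Edn2 and 2.52 ± 1.58 for Edn1 (normalized counts per kilobase, SD, n = 3 each), and their ranges overlapped. In Tlx3cko DRGs Edn3 stood at 77.1 ± 13.7, Edn1 at 7.54 ± 2.08 and Edn2 at 2.21 ± 2.02 on the same scale, with no overlap between neighbours in this order. Edn3 made up 45.4%, 48.1% and 14.6% of the ligand level per kilobase in control replicates 1, 2 and 3. In the Tlx3cko libraries its share was 84.5%, 90.5% and 91.4%. Edn3 was far above the other ligands together in each mutant library. With the longest transcript as the gene length the share of Edn3 was 52.3%, 55.0% and 18.4% among controls against 87.8%, 92.7% and 93.3% among mutants. In control replicates 1 and 2 the length used thus decided whether Edn3 stood slightly below or slightly above the others together. In control replicate 3 Edn3 stood below them with either length. The control shares rest on few reads, at most 15 per ligand gene and library. The 3 ligands together came to between 7.06 and 8.67 normalized counts per kilobase in the controls and to between 71.2 and 100.3 in the mutants.

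**Figure D2:**
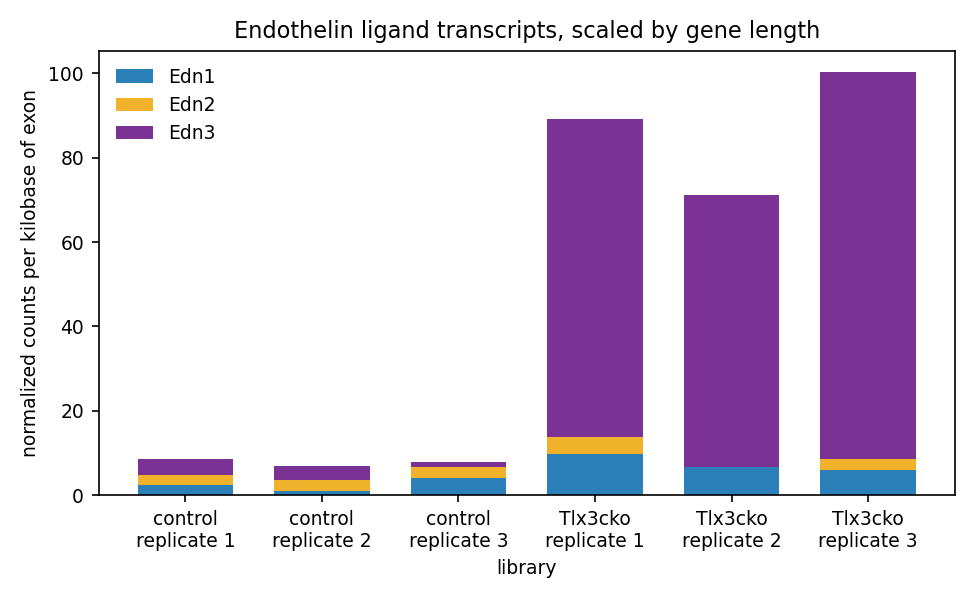
Stacked bars give the normalized counts per kilobase of exon of Edn1 (blue), Edn2 (yellow) and Edn3 (purple) in each of the 6 libraries. The bars reach between 7.06 and 8.67 in control and between 71.2 and 100.3 in Tlx3cko libraries, where most of the height is Edn3.

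Ednrb (ENSMUSG00000022122, chr14:103814625-103844402, minus strand) encodes ETB, the receptor that endothelin-3 prefers. It was the more abundant receptor gene, with normalized counts of 769.6, 839.8 and 984.3 among controls against 976.9, 888.4 and 980.2 among mutants. The control with the highest value, replicate 3, lay above all mutants. The log2 fold change was 0.13 (SE 0.10, adjusted p = 0.658, edgeR), and the 95% interval from 0.94-fold to 1.28-fold leaves no room for a change of the size seen in Edn3. With control replicate 3 as the only control the log2 fold change was -0.05. Per kilobase, the ratio of Edn3 to Ednrb was 0.0147 ± 0.00867 in control and 0.346 ± 0.047 in Tlx3cko DRGs (SD, n = 3 each).

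Ednra (ENSMUSG00000031616, chr8:77663031-77724464, minus strand) encodes ETA. Normalized counts were 79.9, 61.8 and 82.2 among controls against 96.2, 63.0 and 82.7 among mutants, and the groups overlapped. The log2 fold change was 0.12 (SE 0.23, 95% interval -0.39 to 0.62, adjusted p = 0.892, edgeR). Its sign turned without Tlx3cko replicate 1 (log2 fold change -0.029) and with control replicate 3 as the only control (-0.020). A gene on the other strand covers 1.66% of its exonic bases, as one does with 1.64% in Edn1.

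No difference in the balance of the receptor genes was detected. Per kilobase, the ratio of Ednrb to Ednra was 12.4, 17.4 and 15.4 among controls against 13.03, 18.1 and 15.2 among mutants. The difference of the log2 ratio was 0.04 (exact two-sided permutation test, p = 0.8; 3 libraries against 3 cannot give less than 0.1). With the longest transcript as the gene length the mean ratios were 10.4 in control and 10.6 in Tlx3cko DRGs.

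Ece1 (ENSMUSG00000057530, chr4:137862237-137965229, plus strand) encodes the main converting enzyme for big endothelin. Normalized counts were 1348, 1231 and 1304 among controls against 1361, 1463 and 1293 among mutants. The log2 fold change was 0.08 (SE 0.08, adjusted p = 0.749, edgeR), with a 95% interval from 0.93-fold to 1.20-fold. Ece2 (ENSMUSG00000022842, chr16:20629828-20646485, plus strand) encodes a related enzyme of neural tissue that works at acidic pH. Normalized counts were 1622, 1722 and 1591 among controls against 1865, 1527 and 1812 among mutants. The log2 fold change was 0.08 (SE 0.09, adjusted p = 0.790, edgeR), with a 95% interval from 0.92-fold to 1.21-fold. The genotypes overlapped in both enzyme genes. Of the exonic bases of Ece2, 57.5% are shared in the annotation with Gm49333, a gene on the same strand with no row in the count table, so the level of Ece2 may hold reads of both. The ratio of Ece1 to Ece2 per kilobase was 0.760 ± 0.0619 in control and 0.772 ± 0.132 in Tlx3cko DRGs (SD, n = 3 each; exact two-sided permutation test, p = 0.9). Over all members the order per kilobase in control DRGs was Ece2 (322), Ece1 (244), Ednrb (203), Ednra (13.6) and then the ligands. In Tlx3cko DRGs Edn3 stood above Ednra (14.7 normalized counts per kilobase) in every library and below Ednrb (222).

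**Figure D3:**
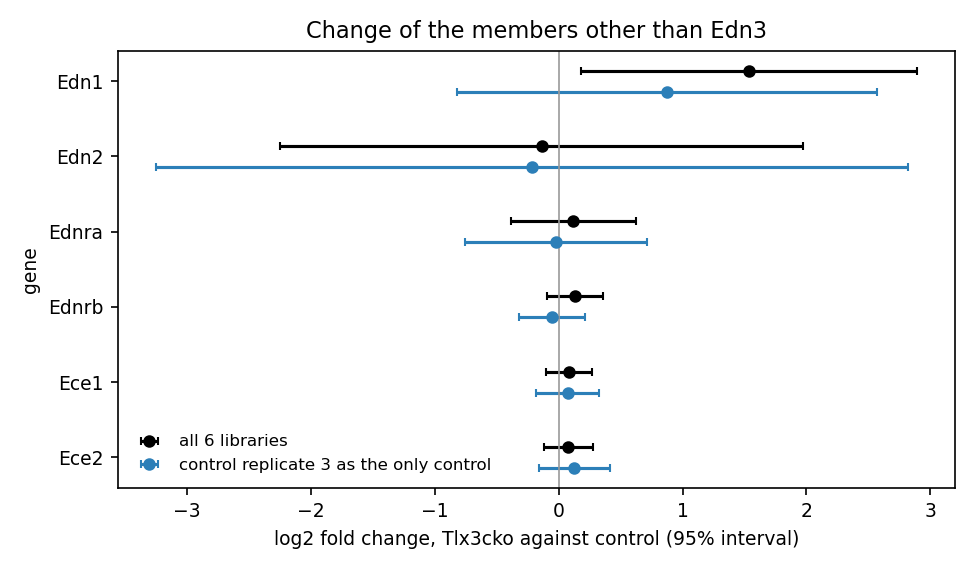
Points give the log2 fold change of Tlx3cko against control for the members other than Edn3, with 95% intervals from edgeR, for all 6 libraries (black) and for control replicate 3 as the only control (blue). The black interval of Edn1 runs from 0.18 to 2.89, and those of Ednrb, Ece1 and Ece2 are narrow and hold 0.

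Among the 6 members other than Edn3, 0 passed an adjusted p under 0.05 in edgeR, DESeq2 or limma-voom, beside 4.25% of all genes tested in edgeR, 6.5% in DESeq2 and 4.27% in limma-voom. The count was also 0 of 6 with control replicate 3 as the only control (2.89% of all genes), without control replicate 3 (3.22%) and with no filter on low counts (5.73%). In DESeq2 Edn2 had no adjusted p. At an unadjusted p under 0.05 the count in edgeR was 1 of 6, namely Edn1, beside 14.5% of all genes tested. It was 0 without control replicate 1, control replicate 2 or Tlx3cko replicate 1 and with control replicate 3 as the only control, and 2 without control replicate 3, where Ednrb was added (unadjusted p = 0.0425, edgeR). The groups did not overlap in 1 of these 6, again Edn1, beside 19.7% of all genes tested (8.87% with the mutants higher, as in Edn1).

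Marker genes of other cell types that differed between the genotypes are given here beside the ligands. Of 8 endothelial genes 1 rose past the threshold, beside 1.69% of all genes tested. It was Pecam1, a junction protein of endothelium, with 189.7 ± 20.1 normalized counts in control against 299.9 ± 30.5 in Tlx3cko DRGs (SD, n = 3 each, log2 fold change 0.66, adjusted p = 0.0202, edgeR). In the other 7 genes log2 fold changes ran from -0.19 for Emcn to 0.41 for Cdh5, and none passed. Pecam1 lost its call when control replicate 3 was omitted, and likewise for Tlx3cko replicates 2 and 3 (highest adjusted p = 0.0991) and with control replicate 3 as the only control (adjusted p = 0.0588). The summed endothelial list ranged from 1058 to 1264 in control and from 1391 to 1529 normalized counts in Tlx3cko libraries, and its part in the values of Edn1 was not tested.

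Of 6 skeletal muscle genes 1 rose, beside 1.69% of all genes tested. It was the myosin gene Myh4, with normalized counts of 235.3, 99.7 and 16.8 among controls against 1209, 859.5 and 416.3 among mutants. Its call was lost without control replicate 2 (adjusted p = 0.0611, edgeR). The summed muscle list ranged from 89.3 to 1903 in control and from 1521 to 2782 in Tlx3cko libraries, and its part in the values of Edn3 was not tested. In the other 5 genes of the list log2 fold changes ran from -1.30 for Mb and -0.07 for Myh1 to 1.39 for Ckm, and none of them passed. Of 6 fibroblast genes 4 fell, beside 2.56% of all genes tested. The largest log2 fold changes were -0.79 for Pdgfra, -0.78 for Col3a1 and -0.52 for Col1a1. Each of these 3 lost its call when any of several libraries was omitted, with highest adjusted p of 0.154, 0.0894 and 0.155 (edgeR). Of 8 neuronal genes 2 rose, beside 1.69% of all genes tested, namely Nefl and Scn10a, with log2 fold changes of 0.23 and 0.43. Scn10a is the gene of Nav1.8 itself, and it kept its call in all 6 fits that omitted 1 library, whereas Nefl kept it only in the fit without control replicate 3.

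The convertases that prepare endothelin precursors were all detected. Of 7 convertase genes 0 passed the threshold in edgeR, beside 4.25% of all genes tested, and 2 had an unadjusted p under 0.05, beside 14.5%. Under DESeq2 1 passed, beside 6.5% of all genes. Pcsk2, a convertase of neurons and endocrine cells with the highest mean count of the list, had 3125 ± 272 normalized counts in control against 3318 ± 98.8 in Tlx3cko DRGs (SD, n = 3 each; log2 fold change 0.09, adjusted p = 0.718, edgeR). Furin, the best known convertase, had a log2 fold change of -0.11 (SE 0.09, adjusted p = 0.677, edgeR). Pcsk1, a convertase of secretory granules and the gene that passed under DESeq2 (adjusted p = 0.0169), had normalized counts of 641.1, 524.6 and 739.4 among controls against 810.4, 948.7 and 840.5 among mutants. These did not overlap, and the log2 fold change was 0.44 (SE 0.12, adjusted p = 0.0682, edgeR). Pcsk1 passed in edgeR without control replicate 3 (adjusted p = 0.0299), whereas with control replicate 3 as the only control its log2 fold change was 0.23 (adjusted p = 0.583). Pcsk5 did not overlap either (log2 fold change 0.63, adjusted p = 0.219, edgeR), which makes 2 of 7 without overlap, beside 19.7% of all genes tested. The median log2 fold change of the list was 0.06, beside -0.0037 over all genes tested.

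Of the neprilysin family, to which the converting enzymes belong, and the endothelin-degrading carboxypeptidase gene Ctsa, 4 of 6 genes were tested and 2 passed the threshold, both higher in Tlx3cko DRGs, beside 1.69% of all genes tested that rose. This list, like the others, was drawn up with earlier results of these data known, so its count is a description only. Mme, which encodes neprilysin, a membrane peptidase that cuts endothelins and neuropeptides, had normalized counts of 354, 233.4 and 171.5 among controls against 533.2, 615.4 and 664.3 among mutants. All mutants lay above all controls, and the log2 fold change was 1.27 (SE 0.20, adjusted p = 0.00276, edgeR). Ecel1, whose product resembles the converting enzymes in sequence, had 3, 12 and 20 raw reads among controls against 311, 98 and 132 among mutants (log2 fold change 4.10). Both calls held when any 1 library was omitted and with control replicate 3 as the only control, where Mme had a log2 fold change of 1.81. Mmel1, a close relative of neprilysin, had normalized counts of 4.32, 4.99 and 14.4 among controls against 15.4, 30.2 and 19.7 among mutants and did not pass (adjusted p = 0.269, edgeR). Ctsa had a log2 fold change of -0.07 (SE 0.08). Phex and Kel had too few counts to be tested.

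Both endothelin receptors signal through Gq and phospholipase C beta, and also through Gi and arrestins. Of 20 genes of these steps 3 rose and 3 fell, beside 1.69% of all genes tested that rose and 2.56% that fell. The median log2 fold change of the list was 0.03, and the groups did not overlap in 6 that were higher and 6 that were lower, beside 8.87% and 10.8% of all genes tested. The phospholipase genes went in opposite directions. Plcb1 had normalized counts of 375.6, 320.2 and 394.9 among controls against 751.7, 824.1 and 872.9 among mutants, a log2 fold change of 1.17 (SE 0.11, adjusted p = 5.2e-05, edgeR). Plcb3 fell by 0.68 on the log2 scale, and Plcb4 had a log2 fold change of 0.31 that did not pass (adjusted p = 0.131, edgeR). The calls of Plcb1 and Plcb3 held when any 1 library was omitted.

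Prkca, a protein kinase C gene, fell by 0.40 on the log2 scale (adjusted p = 0.013, edgeR). Grk2, whose kinase desensitizes receptors, fell by 0.37 (adjusted p = 0.00756, edgeR). Itpr3, a calcium release channel gene, and Arrb1, which encodes an arrestin, both rose by 0.37 on the log2 scale (adjusted p = 0.0462 and 0.0393, edgeR). These 4 changes were less firm. Among the 6 fits that omitted 1 library, Arrb1 passed only without control replicate 3 (highest adjusted p = 0.157) and Itpr3 only without control replicate 1 or Tlx3cko replicate 1 (highest adjusted p = 0.202). Prkca lost its call without control replicate 3 or Tlx3cko replicate 3 (highest adjusted p = 0.0714), and Grk2 lost it without Tlx3cko replicate 3 (adjusted p = 0.0661). With control replicate 3 as the only control Plcb1, Plcb3 and Prkca passed, and the other 3 did not. The G protein genes Gnaq and Gna11, which couple the receptors to phospholipase C, had log2 fold changes of -0.11 and -0.17 (adjusted p = 0.624 and 0.414, edgeR).

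Mutations of EDN3 or EDNRB disturb the same neural crest lineages as mutations of several other genes, and 11 of these were listed. Of the 9 tested, 1 rose and 1 fell, beside 1.69% and 2.56% of all genes tested. Kitl, the ligand of the Kit receptor, rose, with normalized counts of 717.8, 552.5 and 617.4 among controls against 903.7, 918.5 and 921.2 among mutants (log2 fold change 0.54, SE 0.11, adjusted p = 0.0102, edgeR). Ret, the receptor tyrosine kinase of GDNF family ligands, fell by 0.33 on the log2 scale (adjusted p = 0.0381, edgeR). Ret lost its call without control replicate 2 or 3 and without Tlx3cko replicate 2 or 3, with a highest adjusted p of 0.186, while Kitl kept it in each of these fits. Kit itself had normalized counts of 1165, 1034 and 1172 among controls against 797.9, 926.4 and 913.3 among mutants (log2 fold change -0.36, adjusted p = 0.0571, edgeR). Sox10, a factor of glia that also acts upstream of Ednrb in the neural crest, had a log2 fold change of -0.11 (SE 0.11).

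**Figure D4:**
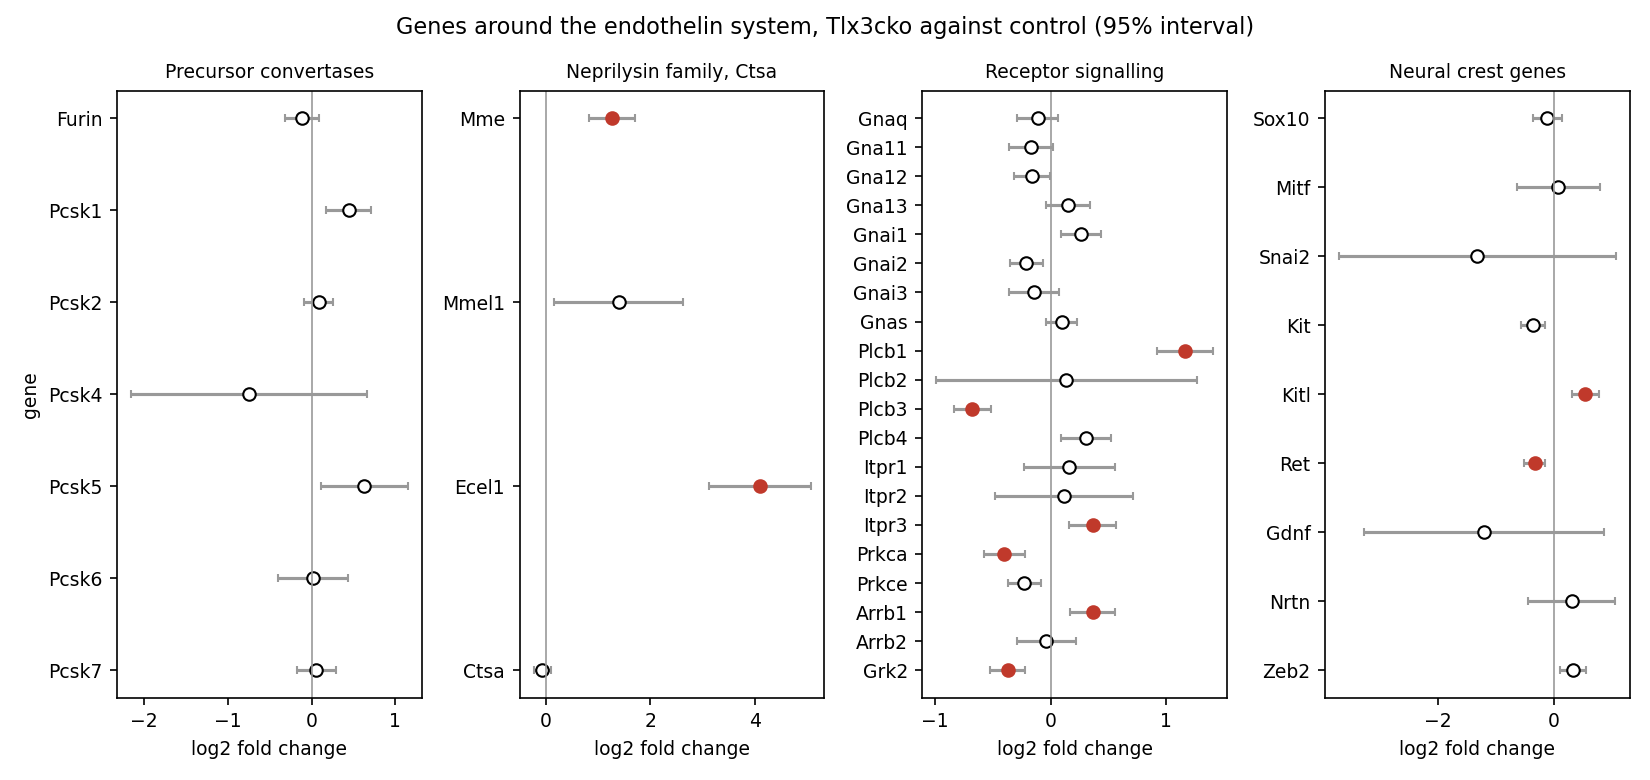
Each point is the log2 fold change of a gene, Tlx3cko against control, with its 95% interval from edgeR, in 4 lists of genes around the endothelin system. Filled red points passed an adjusted p under 0.05. There are 0 such genes among the convertases, 2 in the neprilysin family, 6 among the signalling genes and 2 among the neural crest genes.

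The genes around Edn3 on chromosome 2 were looked at in a window that reached 500 kb beyond either end of the gene. Of 16 tested neighbours 1 passed the threshold, beside 4.25% of all genes tested, and the groups did not overlap in 6, beside 19.7% of all genes tested. The gene that passed was Nespas, a transcript antisense to the Gnas cluster, which had normalized counts of 49.6, 33.9 and 32.7 among controls against 213.7, 168.0 and 208.6 among mutants. Its log2 fold change was 2.35 (SE 0.22, adjusted p = 3.84e-05, edgeR). Of its exonic bases 31.4% lie under exons of Gnas on the other strand, and without the strand the reads of the 2 genes cannot be told apart there. Gnas itself had a log2 fold change of 0.10 (adjusted p = 0.556, edgeR). Measured from the start of Edn3, the tested gene with the nearest start was Prelid3b at -287.5 kb, with a log2 fold change of 0.16 (adjusted p = 0.579, edgeR). On the other side the first was Gm14439 at 301.8 kb. It had few counts, with normalized values of 5.40, 3.99 and 0.80 among controls against 12.5, 7.87 and 6.89 among mutants. These did not overlap, and the log2 fold change was 1.45 (adjusted p = 0.468, edgeR).

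**Figure D5:**
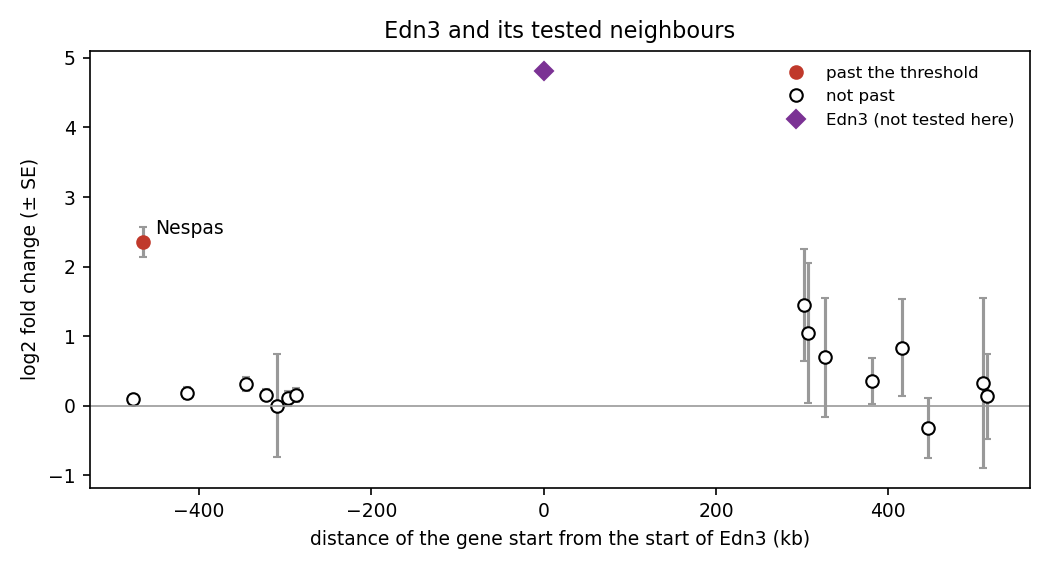
The horizontal axis gives the distance of each gene start from the start of Edn3 in kb, and the vertical axis the log2 fold change, Tlx3cko against control, with its SE. Edn3 (purple) stands at 4.82 and Nespas (red) at 2.35, while the other 15 neighbours lie between -0.32 and 1.45.

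The genes whose pattern over the 6 libraries was most like that of Edn3 were sought among 13372 genes whose mean reached 50 normalized counts, by Pearson's r of log2(normalized counts + 2). Among them were Cacng2, which encodes an auxiliary subunit of AMPA receptors (r = 0.999), Ctps2 (r = 0.997), Synj2 (r = 0.995) and Rgs11 (r = 0.995). All points share the 6 libraries and their split into genotypes, so that genes which separate the genotypes evenly also reach a high r. Normalized counts of Cacng2 were 573.1, 539.6 and 444.3 among controls against 1100, 1016 and 1110 among mutants. Control replicate 3 was the lowest library, as it was for Edn3. Cacng2 was picked for its high r, so this match is part of the choice and not a separate result. Among the members r with Edn3 was 0.490 for Ece1, 0.420 for Ece2, 0.389 for Ednrb and 0.197 for Ednra.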

How the data were processed

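DRG RNA of 3 control and 3 Tlx3cko samples had been sequenced as paired ends on an Illumina instrument. The authors deposited raw read counts per gene, without normalization. The submitters' processing notes name STAR 2.5.2a and the mm10 build. The counting program, its annotation release and its use of strand are not given in the sources used here. Names, positions and lengths came from GENCODE M21 on GRCm38.

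Counts were tested with edgeR 4.0.16 in R 4.3.3 (quasi-likelihood, TMM, at least 10 counts in all), with Benjamini-Hochberg adjustment over 20006 genes and a threshold of 0.05. Alternatives were DESeq2 1.42.0, limma-voom (limma 3.58.1), other normalizations and filters, the replicate number as a block, each library omitted, and control replicate 3 as the only control, a lone sample assumed to vary like the mutants. SEs were obtained from fold changes with their F statistics, and limits at 0 counts cover counting error only. Replicates differed beyond sampling noise (chi-square per degree of freedom from 4.46 to 10.7). Shared stretches were sought with blastn 2.17.0+. The test was checked on simulated counts.

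Members and lists were chosen with earlier results of these data known. Named are the members, Tlx3, Xist and Ddx3y, pathway list genes past the threshold or else the one with the highest mean, up to 3 marker genes past the threshold per list, and the 5 genes most like Edn3. Some genes covered by this rule are not reported here. Furin, Pcsk1, Pcsk5, Mmel1, Ctsa, Plcb4, Gnaq, Gna11, Kit and Sox10 were chosen after their values were seen. So were Mb, Myh1, Ckm, Tyrp1, Pmel, Emcn, Cdh5, genes without enough counts and the window around Edn3. In the marker lists whose calls are not given above, 0 genes of satellite glia, mural cells, melanocytes, macrophages and blood passed. Egr2 of Schwann cells rose (log2 fold change 0.81) and Pax2 of spinal cord fell (log2 fold change -2.65), beside 1.69% and 2.56% of all genes tested. Both lost their calls when single libraries were omitted.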

Additional observations from a re-analysis of the deposited data

How the results depend on the processing

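With 3 libraries a group, the calls of small changes moved with the settings, while 0 of the 6 members other than Edn3 passed in any of the 15 alternatives fitted, in which Edn2 had no adjusted p with DESeq2 and with filterByExpr, and the adjusted p of Edn1 ranged from 0.192 to 0.752. The log2 fold change of Edn3 stayed between 4.39 and 6.02, the latter with control replicate 3 as the only control. The count of 851 genes past the threshold became 1529 with no filter on low counts, 553 with control replicate 3 as the only control, and between 488 and 938 with each library left out. Of the convertases 1 passed with DESeq2, 1 with no filter, and between 0 and 1 with each library left out. The signalling genes past the threshold were 3 with control replicate 3 as the only control and between 2 and 5 with each library left out, and the neural crest genes between 1 and 2. The sign of Edn2 turned with the libraries left out (log2 fold change -0.77 to 0.37), as did that of Ednra (-0.029 to 0.27), and with control replicate 3 as the only control the log2 fold changes were -0.020 for Ednra and -0.054 for Ednrb. The cause was not tested, except that these fits hold fewer samples. With the replicate block 770 genes and 1 neural crest gene passed. Libraries of the same number did not deviate together (r = -0.134, -0.0095 and -0.116), and none correlated best with its own number, so the number was not taken as a pairing. Depth limits Edn1 and Edn2, whose counts were at most 22 and 6 per library.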
